A study of Arabidopsis thaliana with 6 samples.

Results

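Transcript levels in floral buds of the Arabidopsis thaliana mutant atyak1-2 were set against those of atyak1-1, a different mutant allele of the same gene, AtYAK1. The comparison rests on the arrays whose titles name these alleles, 4 of the 6 in the series, and the question was which transcripts differ between the alleles and whether both lost pollen transcripts to the same depth. The groups were atyak1-2, atyak1-1 and the wild type, all in the Col-0 ecotype, with 2 biological replicates each and 1 Affymetrix ATH1 array per replicate. RNA came from whole flower buds of all ages through stage 13, picked from the main inflorescence of plants 42 days old in days of equal light and dark, and it was not separated by organ or cell type. No treatment was applied to any group. The wild-type arrays served to estimate the spread and to show what the mutants had lost. They also counted in the mean signal that decided which probe sets were tested, so a transcript dim in both mutants could be tested through its wild-type signal. What lesion each mutant carries is not stated in the labels. The table that names the probe sets lists 0 for AtYAK1, and the transcript of the mutated gene could therefore not serve to check the genotypes.

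AtYAK1 encodes a protein kinase of the DYRK family, relatives of which restrain growth and cell division in yeast and animals and act downstream of the nutrient sensor TOR in Arabidopsis. Pollen is made in the anther: the tapetum feeds the young microspores, each microspore divides into a large vegetative cell and a small generative cell, and the generative cell gives rise to the sperm. Late in this course the vegetative cell fills with transcripts for the coming pollen tube, among them enzymes that remodel pectin, sugar transporters, actin-binding proteins and receptor kinases.

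Each value is a MAS5 signal, an intensity in arbitrary units that had been scaled to the same mean on every array, and the median signal of an array lay between 213 and 223. The ratio of 3′ to 5′ signal of the control genes, which climbs as RNA degrades, was between 7.86 and 14.4 for actin and between 1.27 and 1.64 for GAPDH over the 6 arrays. In log2 units the difference between the alleles had an SD over 15164 probe sets of 0.288 in replicate 1 and 0.317 in replicate 2. Replicate 2 minus replicate 1 had a larger SD, 0.392 within atyak1-2, 0.539 within atyak1-1 and 0.369 within the wild type. Arrays of the same replicate number were thus more alike across the alleles than the replicates of an allele, and the atyak1-1 pair was the most spread. For 13357 probe sets (88.1%) the 95% confidence interval of the allele difference lay within 2-fold either way, and the median half-width of that interval was 1.38-fold.

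No transcript passed an adjusted p of 0.05 between the alleles in limma's moderated test over all 15164 probe sets (0% called), and the smallest adjusted p was 0.0540. At an unadjusted p under 0.05 there were 151 probe sets, 0.996% of those tested, of which 97 were higher in atyak1-2. With the replicate number as a block in the same fit, which sets each atyak1-2 array against the atyak1-1 array of its own number, 2 transcripts passed, both higher in atyak1-2 (0.0132% of probe sets called in that direction). These were AT1G53035 and the probe set 259978_at, for which no gene is listed. Without atyak1-1 replicate 1 the first fit called 6, and without any other single array it called 0. Of all probe sets, 1593 (10.5%) had both atyak1-2 arrays above both atyak1-1 arrays and 1568 (10.3%) had both below. Within replicate 1, 99 probe sets (0.653%) were at least 2-fold apart between the alleles, and within replicate 2, 161 (1.06%) were. Within each replicate number separately, 3570 (23.5%) were higher in atyak1-2 both times and 3663 (24.2%) were lower both times. Pearson's r between the replicate 1 and the replicate 2 difference was -0.018 over the 15164 probe sets, which share arrays and scaling, so across the genome as a whole the difference seen in one replicate did not recur in the other.

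**Figure D1:**
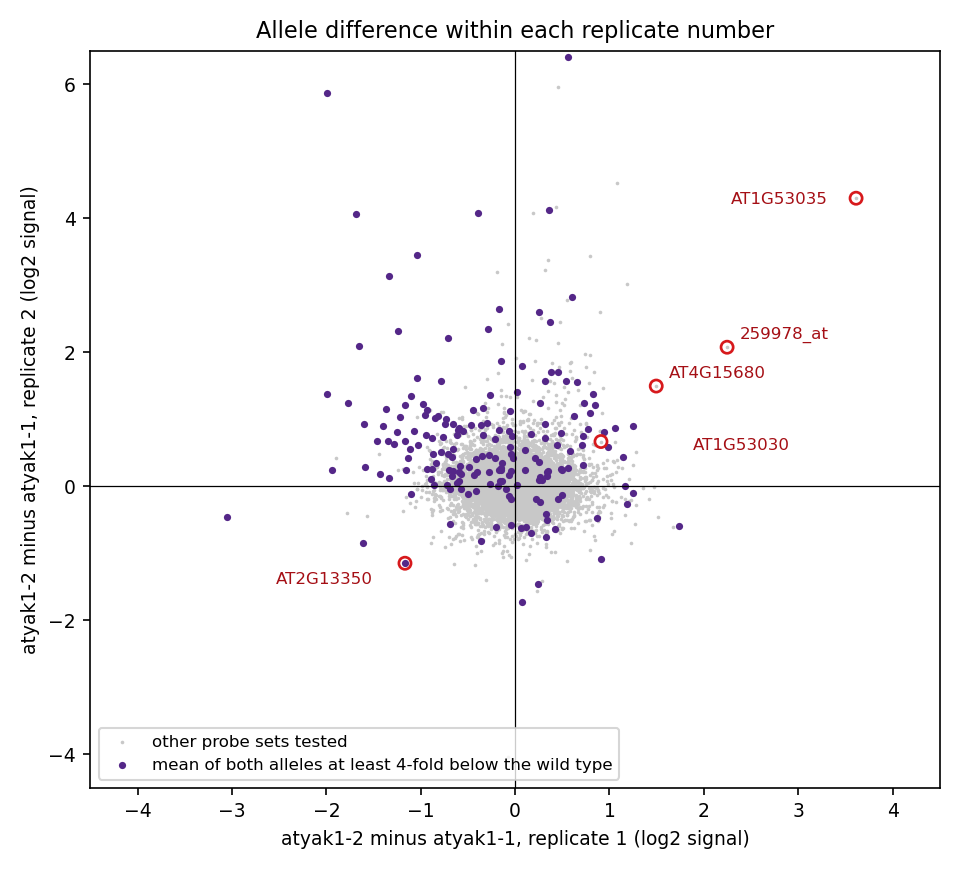
Each point is a probe set, with the log2 difference atyak1-2 minus atyak1-1 in replicate 1 along the horizontal axis and in replicate 2 along the vertical axis. AT1G53035 (3.61 and 4.30) and 259978_at (2.25 and 2.08) are the 2 transcripts more than 2 log2 units higher in atyak1-2 in both replicates, at the upper right, while the purple points, 183 transcripts at least 4-fold lower in the mean of both alleles than in the wild type, spread mostly to the upper left.

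AT1G53035, a gene for a small membrane protein of unknown function, had signals of 365 and 652 in atyak1-2, against 29.8 and 33.1 in atyak1-1. The wild-type arrays gave 385 and 437. atyak1-2 was therefore at about the wild-type level and both atyak1-1 arrays were far below it, with no overlap. The difference atyak1-2 minus atyak1-1 was 3.96 ± 0.29 on the log2 scale (SE, 2 arrays each, 15.5-fold, 95% interval 3.26 to 4.65), with an adjusted p of 0.0540 in limma and 0.00150 with the replicate block. Over the alternatives run the adjusted p lay between 2.36e-06 and 0.490, and it was under the threshold only with the block and without atyak1-1 replicate 1 (0.0411). Against the wild type, atyak1-1 had a difference of -3.71 (adjusted p = 0.0046, limma) and atyak1-2 one of 0.25 (adjusted p = 0.76, limma), from comparisons that share the wild-type arrays. The atyak1-1 signals lie under 73.6, the lowest mean signal tested, so the fold is uncertain, and with 32 added to every signal before the log the difference was 3.04.

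The gene next to it on chromosome 1, AT1G53030, encodes a copper chaperone of the COX17 type, which serves cytochrome c oxidase in mitochondria. Its signals were 315 and 368 in atyak1-2, against 168 and 231 in atyak1-1 and 279 and 270 in the wild type. The alleles did not overlap and the difference had the same direction as that of AT1G53035 in both replicates (0.91 and 0.67), with a mean of 0.79 ± 0.21 that did not pass (unadjusted p = 0.0072, limma). Among the 10 genes on either side of AT1G53035, 6 others were tested. Their differences ran from -0.18 to 0.44. Of the 6, 5 overlapped between the alleles, as most probe sets did (10.5% of all set apart above and 10.3% below). The exception was AT1G53110, with 104 and 86.0 in atyak1-2 and 70.5 and 69.2 in atyak1-1. These neighbours were looked up after the value of AT1G53035 was known.

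Probe set 259978_at gave 608 and 767 in atyak1-2, against 128 and 182 in atyak1-1 and 828 and 779 in the wild type. It had the same order of groups as AT1G53035, with atyak1-1 alone below, and here all arrays were well above the lowest signal tested. The difference was 2.16 ± 0.22 (4.47-fold), with an adjusted p of 0.187 in limma, 0.0104 with the replicate block and between 8.43e-06 and 0.99997 over the alternatives.

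In all, 5 transcripts (0.033%) were at least 2-fold higher in atyak1-2 within both replicate numbers and 1 (0.00659%) was at least 2-fold lower in both. Beside them, 14 (0.0923%) were 2-fold apart in opposite directions. With 32 added to every signal, 4 were 2-fold apart in the same direction, all of them higher in atyak1-2, and 4 in opposite directions. AT1G53035 and 259978_at are 2 of the 5. AT4G15680, a glutaredoxin, a class of small proteins that use glutathione to reduce disulfides, had 214 and 164 in atyak1-2, against 75.8 and 58.1 in atyak1-1 and 96.1 and 65.6 in the wild type. Here it was atyak1-2 that stood above the other genotypes, by 1.496 ± 0.32 over atyak1-1. The peroxidase gene AT3G03670 had 196 and 125 in atyak1-2, against 86.1 and 15.5 in atyak1-1 and 142 and 122 in the wild type, so much of its difference of 2.10 ± 0.74 came from 1 dim array, without which it was 0.86. AT1G56100, a protein of the kind that inhibits invertases or pectin methylesterases, had 674 and 163 in atyak1-2 and 318 and 7.05 in atyak1-1, which overlap although each replicate had atyak1-2 higher. The transcript lower in atyak1-2 was AT2G13350, which encodes a protein with a calcium-binding C2 domain. It had 40.9 and 32.1 in atyak1-2, against 91.7 and 71.2 in atyak1-1 and 572 and 545 in the wild type, so both alleles had lost most of it. The signal was lower in atyak1-2 (-1.16 ± 0.26, unadjusted p = 0.0029, limma). Both atyak1-2 signals and the 71.2 lie under 73.6, the lowest mean signal tested, so this fold is uncertain. With 32 added to every signal the difference was -0.73, less than 2-fold. None of these 4 passed over all probe sets (lowest adjusted p 0.9998, limma).

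**Figure D2:**
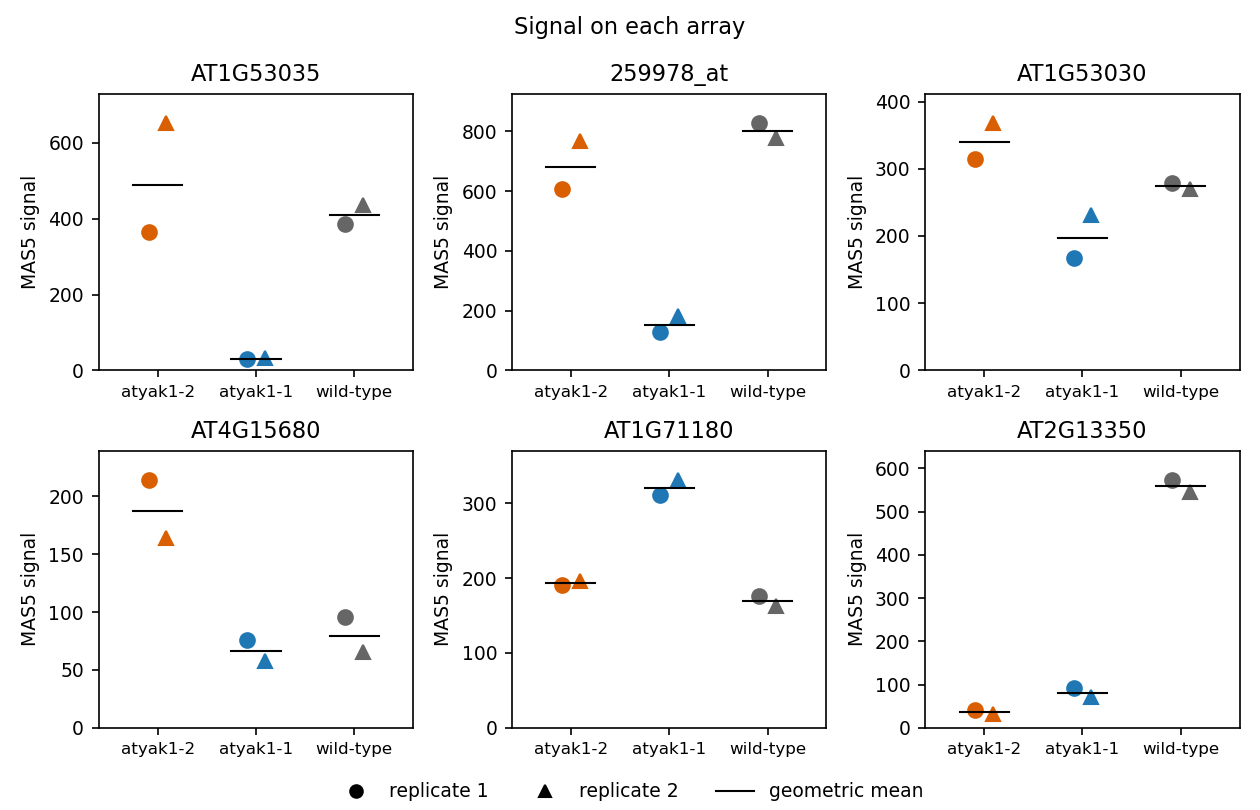
MAS5 signal (vertical axis from 0, arbitrary units) on each array for 6 transcripts, with atyak1-2, atyak1-1 and the wild type from left to right, replicate 1 as circles, replicate 2 as triangles and bars at the geometric mean. AT1G53035, 259978_at and AT1G53030 have atyak1-1 lowest, AT4G15680 has atyak1-2 highest, AT1G71180 has atyak1-1 highest, and AT2G13350 is low in both alleles.

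Transcripts of moderate or high signal whose alleles did not overlap were then ranked by the smaller of their differences in the 2 replicates. Among the 5962 named probe sets above the median signal, 600 had both atyak1-2 arrays above and 624 both below, and the leading 12 each way are described. The 12 higher ones had differences between 0.47 and 1.38, none passed (lowest adjusted p 0.9998, limma), and all 12 had an unadjusted p under 0.05. With the replicate block in a fit to only the 4 mutant arrays 1 of them, AT4G12890, passed (adjusted p = 0.0476, limma), and with the block in the fit to all 6 arrays none did. They lead their direction by the rule that chose them, so these p-values are descriptive.

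The highest of them, AT4G12890, encodes a thiol reductase of the GILT type, which in animals unfolds proteins in lysosomes. It had 536 and 464 in atyak1-2, against 310 and 119 in atyak1-1 and 704 and 583 in the wild type (1.38 ± 0.41). The difference was 0.69 without atyak1-1 replicate 2 and 2.06 without atyak1-1 replicate 1. AT3G26140, a cellulase of glycosyl hydrolase family 5, had 1063 and 802 in atyak1-2, against 629 and 418 in atyak1-1 and 716 and 836 in the wild type. In both genes atyak1-1 was the lower allele and atyak1-2 was nearer to the wild type. Of the 12, 3 encode serine carboxypeptidase-like proteins, a family of secreted and vacuolar hydrolases and acyltransferases. SCPL43 had 1402 and 1372 in atyak1-2, against 899 and 822 in atyak1-1 and 879 and 809 in the wild type (0.69 ± 0.13). scpl47 had differences of 0.83 and 0.53 within the replicates and scpl20 had 0.44 and 0.59. SCPL43 and scpl47 stood above the wild type in atyak1-2, while scpl20 was below it in atyak1-1. The family as a whole was looked up after these values were seen. Of its 17 tested members 5 had both atyak1-2 arrays above and 0 had both below, beside 10.5% above and 10.3% below over all probe sets. The 5 include SCPL43, scpl47 and scpl20, which were chosen for this trait and prompted the look. Their share is therefore no measure of the family. The others of the 5 were scpl35 and scpl46. Within the replicates 6 were higher both times and 5 lower both times, beside 23.5% and 24.2% of all, and the median difference was -0.02.

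AT1G72290, an inhibitor of proteases of the Kunitz type, had 3054 and 2674 in atyak1-2, against 1946 and 1631 in atyak1-1 and 1920 and 2488 in the wild type, the brightest of the 12. Enzymes that act on walls or small molecules made up part of the rest: AT2G43610, of the chitinase family (0.47 ± 0.15), AT5G12270, an oxidase that uses 2-oxoglutarate (0.54 ± 0.16), and AT1G23440, a pyroglutamyl peptidase (0.53 ± 0.17). AT2G30740, a protein kinase, had 331 and 349 in atyak1-2, against 211 and 210 in atyak1-1 and 299 and 247 in the wild type, a replicate spread that was small beside the difference of 0.69 ± 0.17. AT3G12000, related to the S-locus glycoproteins, had 0.73 ± 0.24. With AT1G53030 these complete the 12, and in 8 of the 12 the atyak1-2 mean was nearer to the wild type than the atyak1-1 mean, against 41.2% of all 1593 probe sets set apart in this direction.

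The 12 lower transcripts differed less, by -0.73 to -0.38, and 7 had an unadjusted p under 0.05. AT1G71180, of the 6-phosphogluconate dehydrogenase family, had 191 and 196 in atyak1-2, against 311 and 330 in atyak1-1 and 176 and 163 in the wild type (-0.73 ± 0.17, unadjusted p = 0.0037). AT5G07860, an acyltransferase of the HXXXD type, had 308 and 241 in atyak1-2, against 488 and 413 in atyak1-1 and 214 and 187 in the wild type (-0.72 ± 0.20). Both were highest in atyak1-1. In atyak1-2 AT1G71180 was near the wild type, while AT5G07860 lay between the wild type and atyak1-1. AT1G33680, with an RNA-binding KH domain, had 301 and 381 in atyak1-2, against 524 and 493 in atyak1-1 and 312 and 300 in the wild type, the same order. AT1G63100, a regulator of the GRAS family, had -0.56 ± 0.21, and AT2G22610, a kinesin motor, had 180 and 207 in atyak1-2, against 255 and 279 in atyak1-1 and 258 and 277 in the wild type. For the kinesin it was atyak1-2 that lay below the other genotypes. 2A6, an oxidase that uses 2-oxoglutarate, had the same order, with -0.45 ± 0.21. AT1G23790, AT5G53800, AT3G12870, AT4G01290, AT3G02120 and AT1G29220 complete the set, with differences of -0.49, -0.46, -0.54, -0.41, -0.49 and -0.38. In 9 of the 12 the atyak1-2 mean was nearer to the wild type, close to the 72.2% of all 1568 probe sets set apart in this direction.

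The depth of the transcript loss was compared next. The mean of both alleles was called below the wild type for 249 transcripts (1.64% of those tested, limma, adjusted p under 0.05), beside 131 (0.864%) called lower in atyak1-2 alone and 143 (0.943%) in atyak1-1 alone against the same wild-type arrays. In whole buds, fewer cells of a type and less RNA per cell cannot be told apart. Over the 249 the median signal was 173 and 154 in atyak1-2, 171 and 135 in atyak1-1 and 782 and 754 in the wild type. By the median transcript, atyak1-2 kept 28.3% of the wild-type signal and atyak1-1 kept 26.9%. The median allele difference was 0.06 on the log2 scale, a fold of 1.04, beside 0.001 over all 15164 probe sets. Replicate 1 gave -0.03 and replicate 2 gave 0.18, so the replicates differed from each other by more than the alleles did. In replicate 2, 182 of the 249 (73.1%) were higher in atyak1-2, against 49.3% of all probe sets, and in replicate 1, 118 (47.4%) were, against 50.1%. The transcripts with both atyak1-2 arrays above both atyak1-1 arrays numbered 46 (18.5%, against 10.5% of all probe sets) and those with both below numbered 20 (8.03%, against 10.3%). None of the 249 passed between the alleles, 19 had an unadjusted p under 0.05 in limma (0.996% of all probe sets did), and the 2 that passed with the replicate block were AT1G53035 and 259978_at, which enter the set through atyak1-1. The 249 were called with the same estimate of spread that the allele test uses, which favours transcripts with close replicates. Their numbers set apart or at a small p are therefore no measure of an excess over all probe sets.

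The split by replicate lay mostly in atyak1-1. Its replicate 2 array was the lowest of the 4 mutant arrays for 136 of the 249 transcripts (54.6%, against 25.3% of all probe sets tested), and its replicate 1 array was the highest for 112 (beside 26.5% of all). The median transcript kept 30.5% of the wild-type signal on atyak1-1 replicate 1 and 24.1% on its replicate 2. On the atyak1-2 arrays it kept 28.8% and 27.5%, between those values. Without atyak1-1 replicate 1 the median allele difference was 0.47, and without its replicate 2 it was -0.28. Leaving out atyak1-2 replicate 1 gave -0.01, and leaving out its replicate 2 gave 0.32. Each value is over the transcripts called in that fit, so the direction of the median rests on single arrays of either allele. The replicate block called 727 transcripts lower (4.79%), and their median allele difference was 0.05, with -0.06 in replicate 1 and 0.18 in replicate 2.

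A call asks that the arrays of a group lie close together, which leaves out transcripts whose replicates differ widely. The loss was therefore also read over all 183 transcripts (1.21%) whose mean of both alleles was at least 4-fold under the wild type, called or not, a set chosen after the data were seen. Over these the median transcript kept 14.05% and 8.05% of the wild-type signal on the atyak1-2 arrays, against 18.8% and 5.88% on the atyak1-1 arrays. In replicate 1 atyak1-2 had lost more, by a median of -0.26 with 66 of 183 (36.1%) higher, and in replicate 2 it had lost less, by 0.49 with 150 (82.0%) higher. The mean of the replicates gave a median of 0.10. By these medians both alleles were lower in replicate 2 than in replicate 1, and the atyak1-1 arrays were farther apart.

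The difference was also followed by depth of loss. Over the 110 called transcripts with a mean log2 loss of 1 to 2 the median allele difference was -0.07 in replicate 1 and 0.17 in replicate 2, over the 48 with a loss of 2 to 3 it was -0.16 and 0.22, and over the 31 with a loss of 3 to 4 it was -0.06 and 0.26. Only the 33 with a loss over 4 had both replicates on the same side, with atyak1-2 higher by 0.27 and 0.81. Those signals were dim, with medians of 62.4 and 36.6 in atyak1-2 and 52.4 and 22.5 in atyak1-1. With 32 added to every signal the values became 0.17 and 0.43. Of the 33, 57.6% were higher in atyak1-2 within both replicates and 9.09% lower in both, beside 23.5% and 24.2% of all probe sets. Those were far brighter, with a median signal of 445 to 453 on the mutant arrays, so the shares are not a like comparison. The filter counted the wild-type arrays too, which raised the mean signal of all 33. Just 5 of the 33 had both allele means above 73.6. Over these 5 the medians were 0.49 and 0.84, or 0.37 and 0.62 with 32 added, and 3 of the 5 were higher in replicate 1. Over the 50 transcripts at least 16-fold lower on average, called or not, 6.55% and 2.57% was kept in atyak1-2, against 6.17% and 1.36% in atyak1-1. Their median allele difference was 0.54, with 0.07 in replicate 1 and 1.04 in replicate 2, and 37 of the 50 were higher in atyak1-2. Within both replicates 44% were higher and 6% lower. The median signal was 18.6 on atyak1-1 replicate 2, which was the lowest mutant array for 41 of the 50. The 43 transcripts (0.284%) called above the wild type in the mutants had a median allele difference of -0.04, with -0.02 and 0.04 in the replicates.

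**Figure D3:**
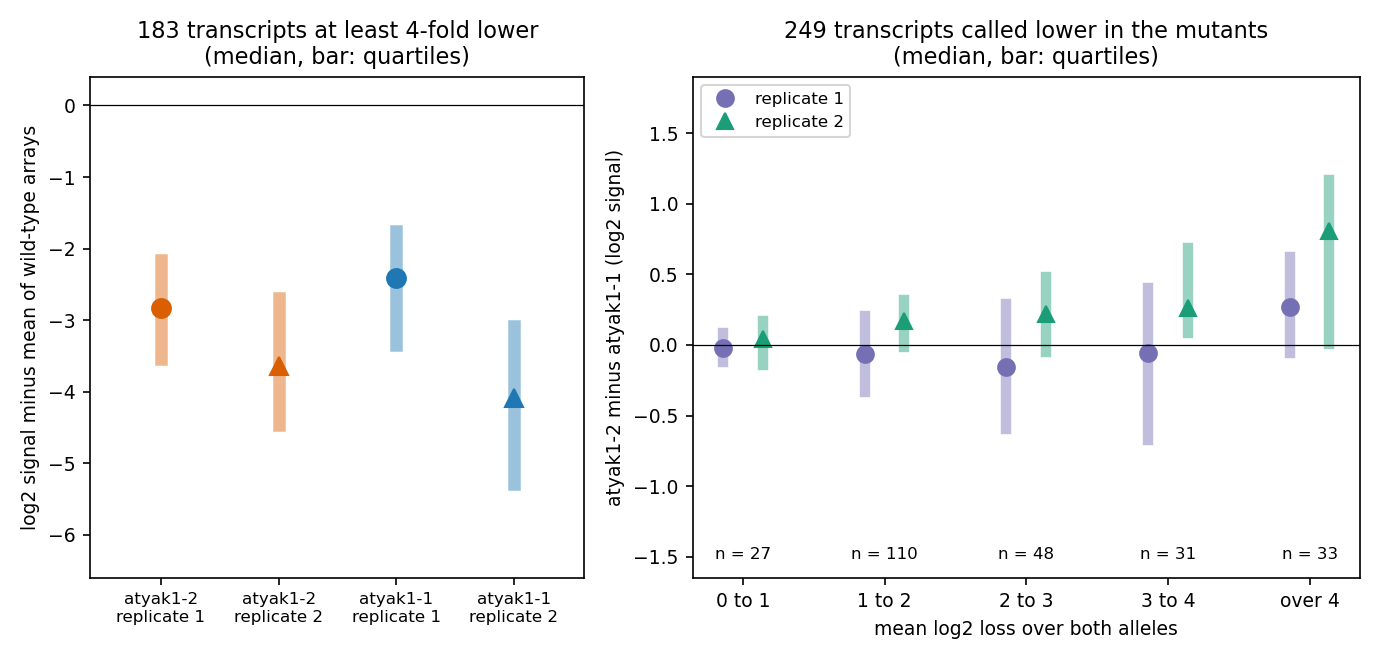
Left, log2 signal minus the wild-type mean on each of the 4 mutant arrays, as the median and quartiles of the 183 transcripts at least 4-fold lower on average; the atyak1-1 arrays, at 18.8% and 5.88% of the wild type, lie outside the atyak1-2 arrays on both sides. Right, the allele difference in log2 signal of the 249 called transcripts by their mean log2 loss, with medians and quartiles in replicate 1 (circles) and replicate 2 (triangles), which fall on opposite sides of 0 except at a loss over 4.

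All 14 transcripts that were 2-fold apart in opposite directions were lower in atyak1-2 in replicate 1 and higher in replicate 2. They include AT5G07430, which encodes a pectin methylesterase, with 197 and 85.2 in atyak1-2, against 405 and 7.82 in atyak1-1 and 3825 and 4263 in the wild type. AT3G07820, a polygalacturonase, had 808 and 216 in atyak1-2, against 1662 and 70.5 in atyak1-1 and 7469 and 9939 in the wild type. Both enzymes belong to families that remodel pectin in the wall of the growing pollen tube. In each the atyak1-1 arrays were the highest and the lowest of the mutants and the atyak1-2 arrays lay between them. The wild-type signal was far above all 4 mutant arrays, so the loss was present in every mutant sample in both genes. Differences of opposite sign partly cancel in the allele mean and need replicates of an allele that lie far apart. The rule that chose the 14 thus fixes that their replicates differ widely beside their allele means, and it makes a call unlikely. None of the 14 was called lower in the mean of the alleles.

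Single genes with strong losses were read next. Among called transcripts of named genes above the median signal, the 10 deepest losses had allele differences between -0.58 and 0.37. All 10 overlapped between the alleles, as most probe sets did, with 10.5% of all set apart above and 10.3% below. AtVEX1, a sugar transporter of the vegetative cell, had 109 and 60.8 in atyak1-2, against 287 and 32.5 in atyak1-1 and 1420 and 2613 in the wild type. AT1G10770, an inhibitor-family protein like AT1G56100, had 390 and 241 in atyak1-2, against 440 and 135 in atyak1-1 and 5208 and 5260 in the wild type. In both, atyak1-1 held the highest and the lowest mutant array. AT5G61720 (363 and 236 in atyak1-2, 881 and 153 in atyak1-1) and AT5G50030 (397 and 225 in atyak1-2, 542 and 102 in atyak1-1) had the same order of arrays.

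Other strongly lowered genes were steadier. AT4G24380 had 297 and 192 in atyak1-2, against 210 and 162 in atyak1-1 and 3295 and 3597 in the wild type, a difference of 0.37 ± 0.24 with a 95% interval of -0.20 to 0.95. AT3G61160, a kinase of the GSK3/shaggy type, had 173 and 106 in atyak1-2, against 136 and 90.3 in atyak1-1 and 1488 and 1119 in the wild type. AT4G19430 had 274 and 312 in atyak1-2, against 371 and 278 in atyak1-1 and 2405 and 2623 in the wild type, with the narrowest interval of the 10, -0.57 to 0.30. The intervals of AT4G24380 and AT4G19430 lay within 2-fold either way, while that of AT3G61160 reached from -0.45 to 1.04. AT1G70720, also of the inhibitor family, leaned the other way, with 159 and 75.1 in atyak1-2, against 204 and 132 in atyak1-1 and 1290 and 1310 in the wild type (-0.58 ± 0.37). AT2G27180 had a difference of -0.001 ± 0.33 and the sugar transporter SWEET13 had 0.32 ± 0.32.

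The late pollen genes were then read by role. Of 85 listed, 20 had a named probe set and 12 were above the signal filter, and those 12 had a median allele difference of 0.03, with -0.04 in replicate 1 and 0.11 in replicate 2. None passed and none had an unadjusted p under 0.05 in limma. Among the actin and actin-binding genes, PLIM2a, a LIM protein that bundles actin, had 58.9 and 26.8 in atyak1-2, against 26.3 and 26.6 in atyak1-1 and 1409 and 1267 in the wild type, a deep loss in both alleles. Its relative PLIM2b had 213 and 173 in atyak1-2, against 354 and 181 in atyak1-1 and 735 and 760 in the wild type, a shallower one (-0.40 ± 0.31). The pollen actins were ACT12, with 124 and 142 in atyak1-2, against 153 and 155 in atyak1-1 and 353 and 516 in the wild type, and ACT11, which is also expressed outside pollen, with 757 and 656 in atyak1-2, against 657 and 631 in atyak1-1 and 936 and 848 in the wild type. Of the 12, PLIM2a had both atyak1-2 arrays above both atyak1-1 arrays, by a small margin in replicate 2, and ACT12 had both below, shares near the 10.5% and 10.3% of all probe sets. ACT11 had the narrowest interval of the 12, -0.22 to 0.48.

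The receptor kinase AT4G39110 had 44.2 and 25.6 in atyak1-2, against 44.9 and 19.1 in atyak1-1 and 458 and 393 in the wild type (0.20 ± 0.49). ANX2, a receptor kinase that keeps the pollen tube intact, was under the filter, with 16.5 and 11.4 in atyak1-2, against 23.6 and 5.28 in atyak1-1 and 286 and 165 in the wild type. The cell wall loosening gene EXPB5 had 55.8 and 23.4 in atyak1-2, against 58.2 and 20.8 in atyak1-1 and 372 and 337 in the wild type. In these genes replicate 2 was lower than replicate 1 in either allele. The MADS-box genes of pollen differed by -0.07 (AGL104), -0.001 (AGL66), 0.01 (AGL30) and 0.10 (AGL65). All overlapped, as most probe sets did (10.5% of all set apart above and 10.3% below). AGL66 had 68.6 and 33.8 in atyak1-2, against 66.5 and 34.9 in atyak1-1 and 144 and 215 in the wild type. MGH3, a histone H3 of sperm cells and under the filter, had 21.4 and 39.3 in atyak1-2, against 64.7 and 46.9 in atyak1-1 and 158 and 276 in the wild type. Both atyak1-2 arrays were below both atyak1-1 arrays, at signals too dim to be tested.

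**Figure D4:**
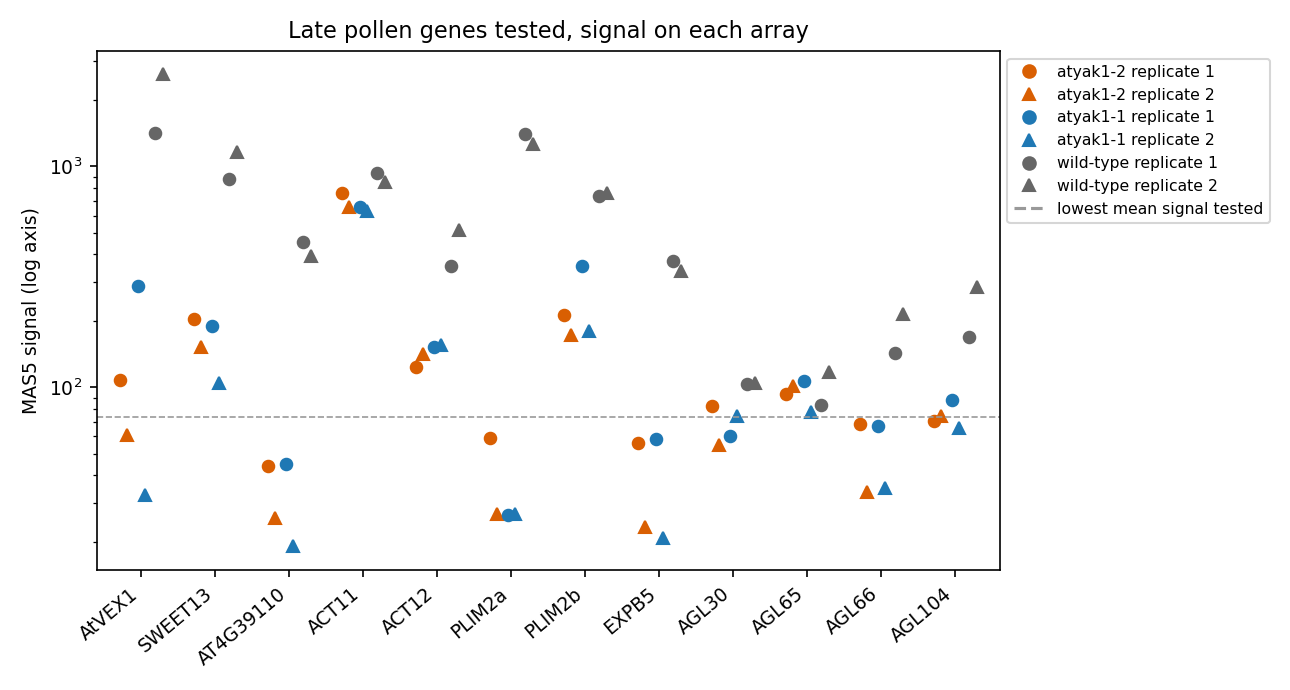
MAS5 signal on a log axis for the 12 late pollen genes above the signal filter, with the arrays of atyak1-2, atyak1-1 and the wild type from left to right for each gene; circles are replicate 1, triangles replicate 2, and the dashed line is the lowest mean signal tested, 73.6. The mutant arrays of a gene lie close together or interleave, as for AGL66 (68.6 and 33.8 in atyak1-2, 66.5 and 34.9 in atyak1-1), and AtVEX1 has the widest spread, within atyak1-1.

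The 5 largest gains of named genes over the wild type were read in the same way, and none passed between the alleles. AT1G12010, an ACC oxidase of ethylene synthesis, had 1590 and 3180 in atyak1-2, against 1303 and 2155 in atyak1-1 and 48.7 and 32.9 in the wild type (0.42 ± 0.39). AT5G01870, a lipid transfer protein, had 1416 and 1288 in atyak1-2, against 1347 and 1456 in atyak1-1 and 501 and 525 in the wild type, with a 95% interval of -0.37 to 0.27. AT5G03350, a legume-type lectin, was the 1 of the 5 whose alleles did not overlap. It had 811 and 762 in atyak1-2, against 1002 and 956 in atyak1-1 and 277 and 307 in the wild type (-0.32 ± 0.14, unadjusted p = 0.061, limma). Of all probe sets, 10.3% had both atyak1-2 arrays below both atyak1-1 arrays. AT2G05540, a glycine-rich protein, and AT2G25510 had 0.13 ± 0.47 and -0.41 ± 0.37.

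The remaining lists gave 42 tested genes in 16 lists, with none that passed between the alleles and none at an unadjusted p under 0.05. The tapetum regulator AMS had 715 and 995 in atyak1-2, against 700 and 1227 in atyak1-1 and 586 and 912 in the wild type, and the tapetal sugar transporter SWEET8 had a difference of -0.15 ± 0.32. Of early anther genes, EMS1, a receptor kinase needed to form the tapetum, had 0.30 ± 0.21 and SPL, needed to start sporogenous tissue, had a difference of -0.35 ± 0.30. These genes act before the late pollen genes. In all 4 the alleles overlapped, as they did for most probe sets (10.5% of all set apart above and 10.3% below). SWEET9, the sugar exporter of nectaries, had 34.2 and 23.0 in atyak1-2, against 35.5 and 15.4 in atyak1-1 and 1867 and 1289 in the wild type, so a strong loss outside pollen was shared by the alleles as well. The petal gene BPEp had 293 and 227 in atyak1-2, against 337 and 200 in atyak1-1 and 618 and 701 in the wild type. Among the tested kinases related to AtYAK1 the farthest from 0 was AT3G25840, with -0.24 ± 0.16, and the tested genes beside AtYAK1 on chromosome 5, AT5G35930, AT5G35970 and CCB3, had -0.04, 0.08 and 0.10. The 9 tested autophagy genes, which recycle cell contents when TOR is low, had a median difference of 0.01.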

How the data were processed

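Signals of 6 ATH1 arrays were read from the deposited value table, in which the authors give the intensity of each probe set as a MAS5 signal on a linear scale; per the submitters' processing notes the software was GCOS and MAS5, whose versions are not stated. With 2% trimmed off each end, array means ran from 499.81 to 499.83: scaling to a common level had been applied, and it hides any difference in total RNA per bud. Detection calls were not used, the number of arrays limits the precision, and log2 signals received no further normalization. The 64 control probe sets and the third of the other 22746 with the lowest mean log2 signal over all 6 arrays, wild type included, were left out, which kept 15164.

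In limma 3.58.1 (R 4.3.3) the 6 arrays were fitted with 1 mean for each genotype, and variances were moderated by a trend on mean signal (3 residual and 3.84 prior degrees of freedom). The contrast was atyak1-2 minus atyak1-1. Benjamini-Hochberg adjustment ran over all 15164, with a threshold of 0.05. The fit was also run on simulated data with independent noise on each array. Those data had no effect shared by a replicate number, so that run does not bear on the choice of block. Differences within a replicate number were simple subtractions. Plots were drawn with matplotlib 3.10.9. Samples with the same replicate number deviated together (correlation of deviations from the group means 0.61 between the alleles, 0.35 between atyak1-2 and the wild type, 0.25 between atyak1-1 and the wild type), so the numbers in the titles were taken to pair the samples; no shared batch is stated, and 2 replicates make this evidence weak. A second fit, blocked on that number (2 residual degrees of freedom), is quoted where it changes a call.

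Gene names came from the platform's annotation: 13513 had 1 gene, 503 several and 8794 none. The gene lists and the choice of AT1G53035 were made with earlier results of these data known. Named were the 12 highest and 12 lowest transcripts by the smaller within-replicate difference, among non-overlapping ones with 1 gene and a mean signal above 215.8, the median; the 10 deepest losses and 5 largest gains among those that pass in the mean of both alleles against the wild type; and the tested members of the pollen, sperm and neighbour lists, with up to 4 of each other list. Genes outside this rule (those 2-fold apart in both replicates, AT5G07430, AT3G07820, the neighbours of AT1G53035, ANX2 and MGH3, which were under the filter, and the genes in the closing section) were chosen after their values were seen. Where a gene had several probe sets, its brightest was used. Alternatives tried were a stricter filter or none, 32 added before the log, quantile normalization, median centring, no variance trend, array weights, only the 4 mutant arrays, the block, other thresholds, and each array left out in turn.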

Additional observations from a re-analysis of the deposited data

How the results depend on the processing

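The count of transcripts passing between the alleles was 0 without the filter, under the stricter filter, with log2(signal + 32), quantile normalization, median centring, no variance trend, array weights, only the 4 mutant arrays, and an added 2-fold criterion. It was 2 with the replicate block, 6 with the replicate block in a fit to only the 4 mutant arrays, 151 by unadjusted p, and 0 to 6 with 1 array left out (6 without atyak1-1 replicate 1, otherwise 0). The count 2-fold apart in both replicates, 6, was 599 without the filter, 1 under the stricter filter, 4 with log2(signal + 32), 69 at 1.5-fold and 2 at 3-fold. Leaving out a mutant array leaves no value. The count 2-fold apart in opposite directions, 14, was 620 without the filter, 9 under the stricter filter, 4 with log2(signal + 32), 12 after quantile normalization, 11 without either wild-type array, 69 at 1.5-fold and 3 at 3-fold. The median allele difference of the called losses, 0.06, lay between -0.28 and 0.47 with 1 array left out; it was 0.32 without atyak1-2 replicate 2 and 0.25 without wild-type replicate 2, where 9 transcripts were called. AT1G53035 is too dim to be tested under the stricter filter. The median of the late pollen genes, 0.03, lay between -0.28 and 0.40 and was -0.02 after quantile normalization and -0.06 under the stricter filter. Among the named genes the replicate block changed the calls of AT1G53035 and 259978_at, and in the fit to only the 4 mutant arrays also those of AT4G12890, GILT and SBT4.13. Of 69 named genes, 41 kept their direction in every alternative run. The direction turned for EXPB5 and AGL30 after quantile normalization (-0.023 and -0.016), for AGL30 after median centring (-0.0021) and for AGL66 with log2(signal + 32) (0.0029). With 1 array left out the allele difference ranged from -1.82 to 1.32 for AtVEX1, -0.52 to 1.19 for AT1G10770, -1.59 to 0.94 for AT5G61720, -0.86 to 1.56 for AT5G50030, -0.064 to 0.64 for AT3G61160, -0.34 to 0.075 for AT4G19430, -0.52 to 0.52 for AT2G27180, -0.11 to 0.75 for SWEET13, -0.076 to 0.92 for AT1G12010, -0.31 to 0.56 for AT2G05540, -0.92 to 0.11 for AT2G25510, -0.12 to 0.016 for AT5G01870, -0.41 to 0.82 for AT4G39110, -0.88 to 0.087 for PLIM2b, -0.69 to 0.79 for EXPB5, -0.28 to 0.30 for AGL30, -0.13 to 0.33 for AGL65, -0.51 to 0.51 for AGL66, -0.28 to 0.15 for AGL104, -0.14 to 0.066 for AT5G35930, -0.29 to 0.44 for AT5G35970, -0.056 to 0.25 for CCB3, -0.34 to 0.86 for SWEET9, -0.38 to 0.37 for BPEp, -0.54 to 0.27 for AMS, -0.72 to 0.024 for SPL, -1.64 to 4.05 for AT5G07430 and -1.99 to 2.57 for AT3G07820. The direction held but the size moved by over 1.5 times for AT3G03670 (0.86 to 3.34), AT1G56100 (0.061 to 5.55), AT4G12890 (0.69 to 2.06), AT3G26140 (0.55 to 1.14), scpl47 (0.38 to 0.97), AT3G12000 (0.39 to 1.06), AT1G23790 (-0.72 to -0.27), AT3G12870 (-0.83 to -0.24), 2A6 (-0.66 to -0.24), AT1G63100 (-0.75 to -0.36), AT1G29220 (-0.53 to -0.23), AT4G24380 (0.060 to 0.69), AT1G70720 (-1.12 to -0.042), ACT11 (0.026 to 0.23), ACT12 (-0.31 to -0.12), PLIM2a (0.017 to 1.15), SWEET8 (-0.25 to -0.045), EMS1 (0.061 to 0.54), AT3G25840 (-0.38 to -0.10), GILT (0.26 to 2.27) and SBT4.13 (0.40 to 3.10). The causes were not tested. Dim signals limit the folds of the deepest losses.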

Other observations

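In the fit with the replicate block to only the 4 mutant arrays, 6 transcripts passed, all higher in atyak1-2. Besides AT1G53035, 259978_at, AT4G12890 and the unnamed probe set 254098_at they were SBT4.13, a subtilisin-type protease (adjusted p = 0.048, limma), and GILT, a thiol reductase like AT4G12890 (adjusted p = 0.0060, limma, and between 0.28 and 1.00 without the block). SBT4.13 had 619 and 312 in atyak1-2, against 332 and 51.1 in atyak1-1 and 524 and 991 in the wild type. GILT, among the brightest transcripts named, had 9050 and 4103 in atyak1-2, against 5081 and 1261 in atyak1-1 and 5382 and 5919 in the wild type, so each replicate had it higher in atyak1-2 (by 0.83 and 1.70) while replicate 1 of atyak1-1 exceeded replicate 2 of atyak1-2.

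AT4G12890, scpl20 and GILT are near neighbours on chromosome 4. Of the 12 genes tested there, 10 on either side of scpl20 being looked at, 4 had both atyak1-2 arrays above both atyak1-1 arrays. A further 1, UND, had both below, beside 10.5% above and 10.3% below of all probe sets. The 4 include scpl20 and AT4G12890, which had been named for this trait before the place was looked at. Their share is therefore no measure of the region. The others of the 4 were AT4G12830 and AT4G13010. The 9 tested genes other than AT4G12890, scpl20 and GILT had allele differences between -0.38 and 0.59. The highest of these was AT4G12830, with 146 and 180 in atyak1-2, against 110 and 105 in atyak1-1 and 105 and 109 in the wild type.

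Without atyak1-1 replicate 1, which leaves a single atyak1-1 array that is assumed to vary like the other groups, 6 transcripts passed (limma), 5 of them higher in atyak1-2. AT1G53035 was among them. RALFL26, of the RALF family of signalling peptides, had 54.0 and 44.7 in atyak1-2, against 11.7 and 1.32 in atyak1-1 and 1804 and 868 in the wild type. All its mutant signals lie under 73.6, the lowest mean signal tested, and in this fit its difference rests on the 1.32. AT5G39880 and the unnamed probe set 265080_at, also among the 5, likewise rest on dim values, 0.557 and 2.02 on atyak1-1 replicate 2. DELTA-VPE, a vacuolar processing protease, had 463 and 360 in atyak1-2, against 343 and 20.1 in atyak1-1 and 452 and 414 in the wild type. AT4G22490 was the 1 that was lower, with 76.2 and 53.1 in atyak1-2, against 80.5 and 876 in atyak1-1 and 75.3 and 94.2 in the wild type. In DELTA-VPE and AT4G22490 the replicate 2 array of atyak1-1 stood apart from the other 5 arrays.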
